A study of Mus musculus with 7 samples.

Results

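The cytosolic ribosomal protein genes were examined in long-read counts from mouse neural stem cells (NSCs). They were chosen by name: the annotated protein-coding genes called *Rpl* or *Rps* with a number, the stalk genes *Rplp0*, *Rplp1* and *Rplp2*, and *Rpsa*, without the *Rps6k* kinases. This gave 84 of the 55335 genes in the files, of which 43 encode core proteins of the large subunit, 31 core proteins of the small subunit and 3 proteins of the stalk, while 7 are tissue-restricted or duplicated paralogs. All NSCs were of the FVB/N strain and were grown with EGF and bFGF. Cells without *Smchd1*, a chromatin repressor, came from 3 samples carrying the null MommeD1 allele (*Smchd1*-null) and were compared with 4 wild-type (WT) samples. Polyadenylated RNA was copied to cDNA, not amplified, and sequenced on nanopore flow cells in batch 1 with the DCS108 kit or in batch 2 with the DCS109 kit. WT replicate 2 and *Smchd1*-null replicates 1 and 2 were in batch 1, WT replicates 3 and 4 and *Smchd1*-null replicate 3 were in batch 2, and WT replicate 1 was in both.

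The ribosome is built from ribosomal RNA and a large set of small basic proteins, most of them present once in each subunit, so cells make these proteins in near-equal numbers. Their mRNAs are short, abundant and regulated together through a pyrimidine tract at the 5′ end that responds to growth signals, and dividing stem cells depend on this supply. Because the mRNAs are short and plentiful, they have been copied back into the mammalian genome many times, and most families have intronless copies, called processed pseudogenes, some of which carry nearly the same coding sequence as the parent gene.

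The libraries held 2741820 to 7736498 counts. *Smchd1* itself was at 55.7 to 74.7 CPM (counts per mega-count of the TMM-scaled library) in the WT samples and at 12.8 to 18.4 CPM in the *Smchd1*-null samples, or -2.15 ± 0.18 (SE) on the log2 scale with an adjusted p of 0.00011 by limma-voom. All 10 NSC markers examined passed the filter on low counts, and their summed level was 8713 to 13923 CPM, the 6 neuronal markers summed to 360 to 419 CPM, and the microglial, endothelial and fibroblast lists each summed to at most 3.26 CPM. WT replicate 4 stood apart. Its NSC and neuronal sums were the highest, its 5 oligodendrocyte markers summed to 1003 CPM against 725 to 835 CPM in the other 6 samples, its 4 astrocyte markers to 113 CPM against 28.6 to 37.9 CPM, and its weight in the genotype fit was the lowest, 0.447. The labels do not say whether replicates came from separate cultures or animals, so the p-values measure the spread between these samples.

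Coding sequences of members and of their copies are shown here because reads of near-identical sequences can be assigned to either gene. The sequences are those of the Gencode M21 transcripts on GRCm38, written 5′ to 3′, with capitals at the bases that differ within a set and positions counted from 1 at the A of the start codon. *Rpl39*, which encodes a very small protein at the exit tunnel of the large subunit and lies on chromosome X (37082520 to 37085402, minus strand), differs over its first 150 coding bases from the pseudogene *Rpl39-ps* on chromosome 15 (102635038 to 102635188, plus strand) by T96C.
Rpl39: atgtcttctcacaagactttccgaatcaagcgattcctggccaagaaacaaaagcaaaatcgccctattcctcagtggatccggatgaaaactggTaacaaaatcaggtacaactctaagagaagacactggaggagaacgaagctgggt
Rpl39-ps: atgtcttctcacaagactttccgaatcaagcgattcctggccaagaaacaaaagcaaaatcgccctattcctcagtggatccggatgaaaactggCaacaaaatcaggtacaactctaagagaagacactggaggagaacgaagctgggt
*Rpl23a*, a large-subunit gene on chromosome 11 (78180932 to 78183584, minus strand), differs over 468 coding bases from the pseudogene *Rpl23a-ps3* on chromosome 14 (34170655 to 34171122, plus strand) by A116T alone. Bases 61 to 180 are shown.
Rpl23a: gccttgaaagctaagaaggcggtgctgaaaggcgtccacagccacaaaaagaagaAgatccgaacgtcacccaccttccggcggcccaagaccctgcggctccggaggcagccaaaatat
Rpl23a-ps3: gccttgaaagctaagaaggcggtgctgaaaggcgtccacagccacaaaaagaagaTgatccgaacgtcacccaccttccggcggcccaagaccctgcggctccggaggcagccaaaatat
*Rpl29*, a large-subunit gene on chromosome 9 (106429454 to 106431568), is shown over bases 191 to 310 with the pseudogenes *Gm13841* on chromosome 5 (115801677 to 115802159), which holds C300T, and *Gm10709* on chromosome 9 (7751725 to 7752204), which holds G205A and C300T in this stretch.
Rpl29: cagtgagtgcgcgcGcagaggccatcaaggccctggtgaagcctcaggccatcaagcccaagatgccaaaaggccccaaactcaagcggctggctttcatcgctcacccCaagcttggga
Gm13841: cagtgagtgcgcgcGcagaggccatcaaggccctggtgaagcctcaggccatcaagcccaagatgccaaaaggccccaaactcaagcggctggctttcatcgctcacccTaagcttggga
Gm10709: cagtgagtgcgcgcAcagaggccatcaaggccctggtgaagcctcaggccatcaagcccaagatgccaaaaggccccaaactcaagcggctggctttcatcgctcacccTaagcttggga
*Rps27* on chromosome 3 (90212522 to 90213651) and its paralog *Rps27l* on chromosome 9 (66946086 to 66949516) encode forms of the same small-subunit protein and are less alike, with 61 of 255 coding bases that differ, 28 of them within the first 120.
Rps27: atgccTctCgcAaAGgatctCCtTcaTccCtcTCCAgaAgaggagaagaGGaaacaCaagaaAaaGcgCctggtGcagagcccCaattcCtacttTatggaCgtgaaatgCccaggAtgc
Rps27l: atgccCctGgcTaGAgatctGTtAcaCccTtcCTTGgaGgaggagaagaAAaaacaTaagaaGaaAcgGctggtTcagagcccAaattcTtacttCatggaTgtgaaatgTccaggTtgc

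The members were detected across the whole range of abundance. Each of the 84 had at least 1 count, and 82 had a count in every sample. The highest was *Rps20*, a protein of the small-subunit head, with 2456, 3946, 2758 and 2005 CPM in WT replicates 1 to 4 and 4048, 3862 and 2652 CPM in *Smchd1*-null replicates 1 to 3. Other high members were *Rps3* at 1786 to 2593 CPM, *Rps9* at 1769 to 2540 CPM and the stalk gene *Rplp1* at 1739 to 2607 CPM. The ranges of these last 3 overlap, so their order does not hold beyond the spread between samples. Divided by the deposited gene length, *Rplp1* came first with 4190 CPM per kb, ahead of *Rps15* (2589), *Rps21* (2389) and *Rps27l* (2304), while *Rps20* was at 761 CPM per kb. The deposited length covers all annotated exons, so this order depends on the annotation. The authors state that long reads, made without fragmentation, should in theory carry no bias from gene length.

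At the other end, *Rpl23a*, a protein that every ribosome carries, had 38 counts in all 7 samples together, with 2 to 10 counts in a library, between 0.532 and 2.62 CPM. *Rpl24* was at 1.95 to 6.66 CPM, *Rps10* at 2.06 to 7.33 CPM and *Rpl35* at 7.77 to 22.02 CPM, although all 3 encode core proteins. Among the 77 core members, the level spanned 2519-fold and the quartiles were 104 and 623 CPM, a ratio of 6.02. On the per-kilobase scale the ratio of the quartiles was 7.29.

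Counts in copies of the same coding sequence were therefore read as a check. The 294 annotated pseudogenes named *Rpl* or *Rps* with -ps held more counts than the members. Their part of the counts of members and -ps pseudogenes together was 51.7%, 51.8%, 52.6% and 51.5% in WT replicates 1 to 4 and 52.1%, 51.8% and 52.2% in *Smchd1*-null replicates 1 to 3, and the genotypes overlapped. Those with the most counts in all were *Rpl39-ps* with 3258 ± 704 CPM (SD, n = 7), *Rps2-ps10* with 2397 ± 416 CPM, *Rpl10a-ps1* with 2208 ± 280 CPM, *Rpl31-ps8* with 2160 ± 215 CPM and *Rpl3-ps1* with 1991 ± 237 CPM. Each exceeded its parent, by 5.41-fold for *Rpl39*, 64.2-fold for *Rps2* (97.6-fold without WT replicate 4), 8.10-fold for *Rpl10a*, 23.8-fold for *Rpl31* and 43.7-fold for *Rpl3*. The pseudogenes that match *Rpl10a* and *Rpl31* have the same bases as the parent over the aligned coding sequence, and those that match *Rpl39*, *Rps2* and *Rpl3* share at least 99.3%.

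Names do not cover all copies. A search for transcripts that match at least 50% of a member's coding sequence with at least 80% identity, a step added after the counts were seen, found 1733 pseudogenes and 22 other genes, for 81 of the 84 members. The pseudogenes among them held 10.1% to 13.9% of all counts, against 3.68% to 4.95% in the members. Of the 1733, 124 were at least 99% identical to their member and held 76.0% of the counts in matched pseudogenes. The other genes include *Gm10076*, annotated as a long noncoding RNA with the whole coding sequence of *Rpl41* and 5098 ± 1552 CPM (SD, n = 7), and *Rps27rt*, annotated as protein-coding with that of *Rps27* and 1951 ± 215 CPM.

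**Figure D1:**
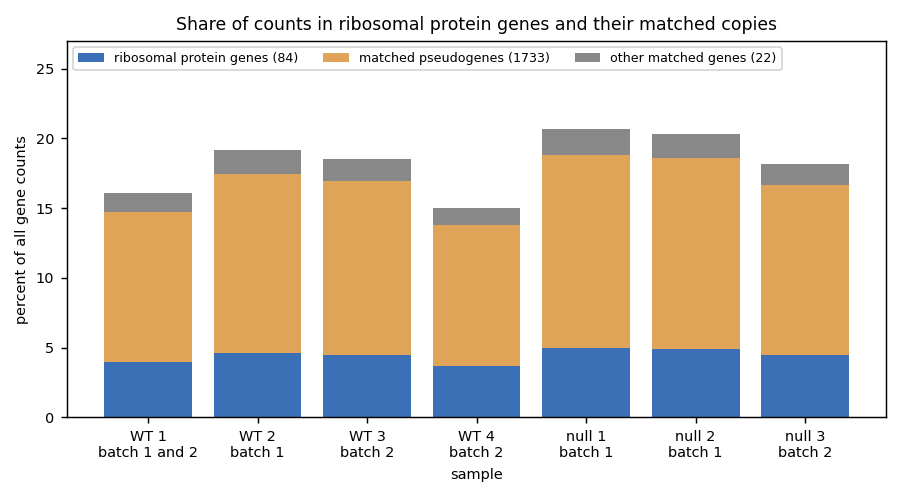
Share of all gene counts (percent, stacked bars) in the 84 ribosomal protein genes, in the 1733 matched pseudogenes and in the 22 other matched genes, for each of the 7 samples with its sequencing batch below. The members take 3.68% to 4.95% in each sample and the matched pseudogenes 10.1% to 13.9%.

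When the counts of each member were added to those of its matched copies, the families were closer in level than the members. The quartiles of the 77 core families were 1844 and 2719 CPM, a ratio of 1.47 where the members alone gave 6.02, and 58 of the 77 lay between 1000 and 3000 CPM against 15 of the 77 members. The families still spanned 43.2-fold, from 193 CPM to 8322 CPM for *Rpl41*, with 8 under 1000 CPM and 11 over 3000 CPM. The SD of the log2 level across core members was 2.24 for the members alone and 0.86 for the families. *Rpl23a* with its copies reached 2261 CPM, of which *Rpl23a-ps3* had 1352 ± 102 CPM (SD, n = 7), and 99.9% of the family's counts were in copies. *Rpl35* reached 2249 CPM, nearly all in *Gm2000*, and *Rps29* reached 4391 CPM with 91.6% in copies, *Gm14303* alone having 3975 ± 318 CPM. Copies held more than 50% of the counts in 64 core families and more than 90% in 40.

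Members without a close copy had higher counts of their own at the median. The 21 core members with no copy of at least 99% identity over at least 95% of the coding sequence had a median of 1180 CPM, and 42.1% of the family's counts were in copies at the median. The 56 core members with such a copy had a median of 188 CPM and a median share in copies of 91.9%. The medians of the family totals were 1906 and 2336 CPM. *Rps3*, *Rpl4* and *Rpl8*, with 0 to 2 matched genes each, had at most 2.03% of the family's counts elsewhere. The sets overlap. *Rpl37a* and *Rps20* each have a copy of at least 99% identity and had 3.795% and 9.43% of the counts in copies, and *Rps10* has none such and had 99.5%. The way a read was placed among near-identical sequences was not tested, since the reads themselves are not used here. The split is a description across genes, which share libraries and are not independent.

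Some families stayed low after the addition. *Rpl32* reached 193 ± 50.1 CPM (SD, n = 7), *Rpl24* 314 ± 72.6 CPM, *Rpl37a* 363 ± 40.2 CPM, *Rplp2* 577 ± 59.4 CPM, *Rpl19* 628 ± 145 CPM, *Rps23* 810 ± 144 CPM and *Rps10* 968 ± 174 CPM. Exons of another annotated gene cover 47.0% of the exon bases of *Rpl24*, 28.7% of those of *Rps10* and 20.04% of those of *Rpl32*, but none of those of *Rpl37a* and *Rps23*. The part of these overlaps in the low counts was not tested. In all, 39 members share exon bases with another gene and 16 share more than 10% of them.

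**Figure D2:**
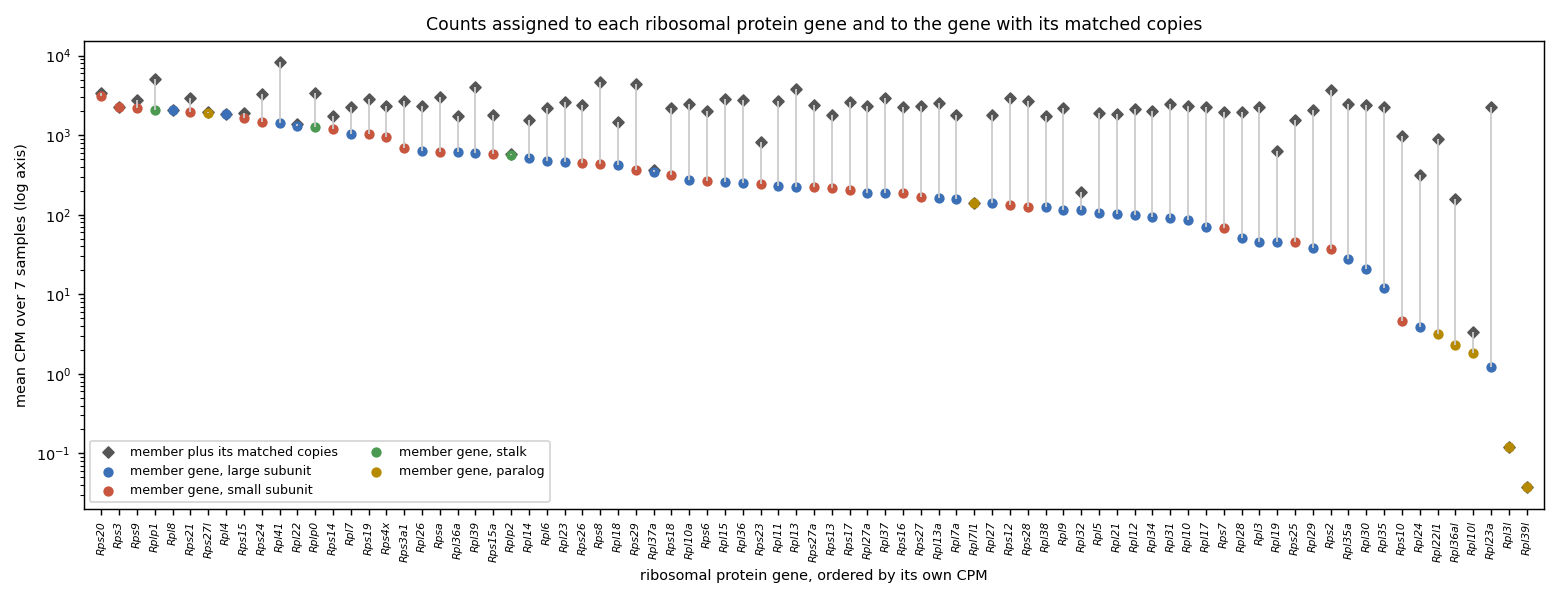
Mean CPM over 7 samples (log axis) of 81 members (circles, coloured by role) and of the member with its matched copies (diamonds), ordered by the member's own level. The circles fall from 3104 CPM for *Rps20* to 0.0375 CPM for *Rpl39l*, while the diamonds of most core members stay between 1000 and 3000 CPM.

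Among the paralogs, *Rps27l* was a main contributor. *Rps27l* had 1489, 1907, 2043 and 1453 CPM in WT replicates 1 to 4 and 2166, 2040 and 2061 CPM in *Smchd1*-null replicates 1 to 3, above *Rps27* in each sample, which was at 124 to 215 CPM. With its copies, however, *Rps27* reached 2363 CPM, against 1947 CPM for the *Rps27l* family. *Rpl22l1* was at 1.47 to 4.72 CPM and *Rpl22*, its partner, at 1138 to 1477 CPM, but copies matched to *Rpl22l1* brought its family to 905 CPM. *Rpl7l1*, which acts in ribosome assembly, had 141 ± 17.5 CPM (SD, n = 7) with 0.918% of its family's counts in copies. *Rpl36al* (1.47 to 3.09 CPM) and *Rpl10l* (1.03 to 2.396 CPM) were low, and the muscle paralog *Rpl3l* and the testis paralog *Rpl39l* had 5 counts and 1 count over all samples. *Rpl9*, at 84.5 to 134 CPM, was 16.1-fold below *Rpl9-ps6*, which the annotation calls protein-coding. The main forms *Rpl36a*, *Rpl10*, *Rpl3* and *Rpl39* of the low paralogs, summed with copies, were at 1732, 2327, 2272 and 3999 CPM.

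The comparison of the genotypes asked whether the members differed in *Smchd1*-null NSCs. Members took 4.00%, 4.59%, 4.47% and 3.68% of all counts in WT replicates 1 to 4 and 4.95%, 4.89% and 4.47% in *Smchd1*-null replicates 1 to 3. The means were 4.19 ± 0.42% (SD, n = 4) and 4.77 ± 0.26% (SD, n = 3), and the groups overlap, since *Smchd1*-null replicate 3 lay below WT replicate 2. In RNA from whole cultures, a share of this kind cannot tell more RNA per cell from more cells of one kind. WT replicate 4, with the highest neural stem cell, neuronal, oligodendrocyte and astrocyte marker sums, had the lowest share, and the part of those markers in it was not tested.

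Of the 84 members, 80 passed the filter and were tested. At an adjusted p under 0.25, the looser of the thresholds used, 1 member was higher and none lower, which is 1.25% of members against 1.08% of all 13305 genes tested (0.474% higher and 0.609% lower). At an adjusted p under 0.05 no member was called (0.0902% of all genes were, 0.0451% in each direction), while 23 members had an unadjusted p under 0.05, each of them higher in *Smchd1*-null, against 13.9% of all genes in either direction and 7.11% higher. edgeR called 0 members at 0.25 (0.0601% of all genes) and DESeq2 0 (0.241%), with 3 and 4 of the 80 members at an unadjusted p under 0.05, against 5.07% and 4.46% of all genes. The log2 fold change was above 0 for 72 of the 80 members with a median of 0.22, and for 50.6% of all genes with a median of 0.0049. Members share libraries and are not independent, so such counts, here and below, are descriptions. By sample, the median deviation of the members in log-CPM was -0.21, 0.027, 0.077 and -0.25 in WT replicates 1 to 4. It was 0.16, 0.18 and 0.0099 in *Smchd1*-null replicates 1 to 3, and the groups overlap.

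The highest fold changes described here did not pass the test. *Rpl39* had 446, 726, 486 and 445 CPM in WT and 785, 844 and 479 CPM in *Smchd1*-null samples, which is 0.57 ± 0.18 (SE) on the log2 scale with an adjusted p of 0.28, and *Rps6*, the substrate of the S6 kinases, had 206, 278, 237 and 202 CPM against 306, 376 and 234 CPM, which is 0.48 ± 0.15 (SE) on the log2 scale with an adjusted p of 0.28. In both genes *Smchd1*-null replicate 3 was close to the WT samples of its own batch.

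The lowest fold changes were those of *Rpl35*, *Rpl29* and *Rpl35a*, and none passed the test. *Rpl35* had 12.5, 7.77, 22.02 and 11.3 CPM in WT and 8.26, 8.12 and 14.5 CPM in *Smchd1*-null samples, which is -0.61 ± 0.30 (SE) on the log2 scale with an adjusted p of 0.38. With its copies, the *Rpl35* family gave 0.16 in place of -0.61. *Rpl29*, at 10.2 to 175 CPM in WT and 14.4 to 18.02 CPM in *Smchd1*-null samples, had -0.40 ± 0.53 (SE, adjusted p = 0.74), and its family 0.33. *Rpl35a* had 25.3 to 34.3 CPM in WT and 24.0 to 26.2 CPM in *Smchd1*-null samples, which is -0.28 ± 0.16 (SE) on the log2 scale with an adjusted p of 0.43, and its family 0.24. All *Smchd1*-null samples lay above all WT samples for 2 members, *Rpsa* and *Rpl32*, which is 2.5% of members against 2.52% of all genes tested, and below them for 0 members against 3.01%.

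**Figure D3:**
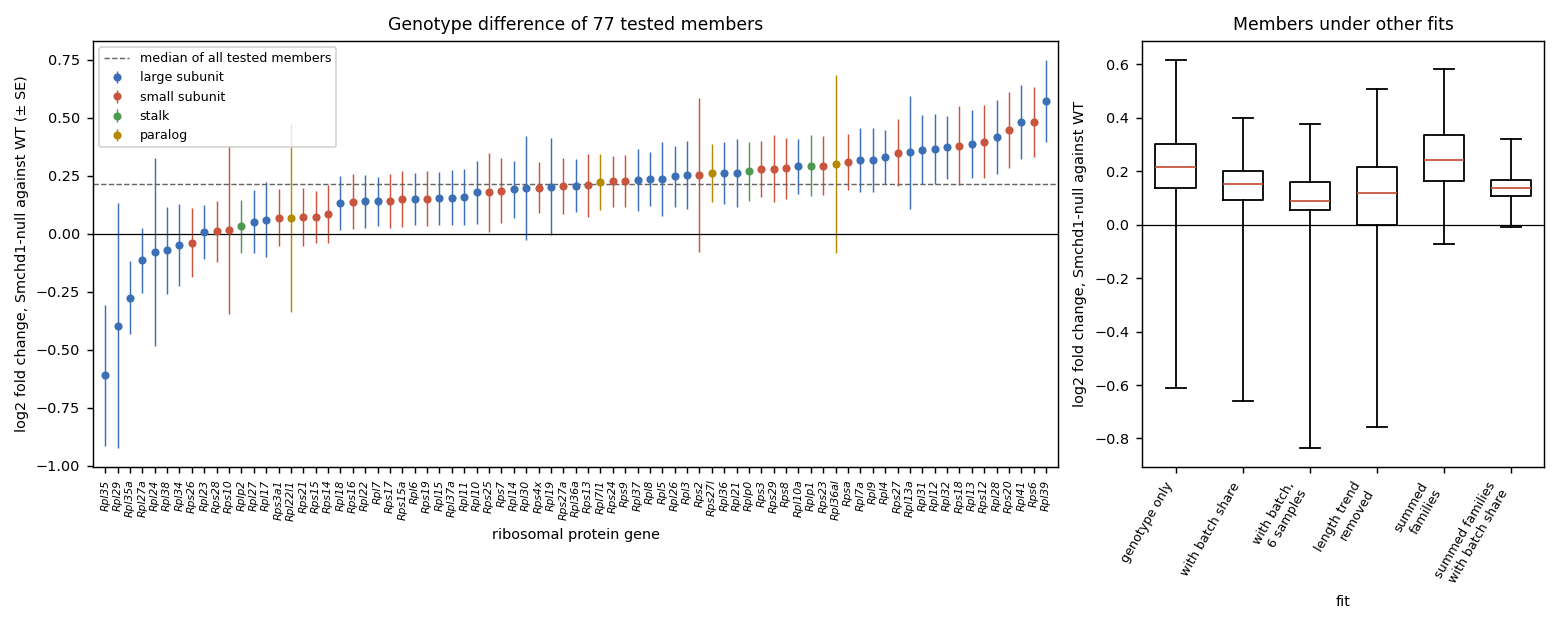
Left, log2 fold change of *Smchd1*-null against WT with its SE for 77 tested members, in order. Right, box plots (box, quartiles; whiskers, lowest and highest) of the log2 fold changes of all tested members in the fit with genotype alone and in 5 other fits. The median is 0.22 with genotype alone, 0.15 with the batch share as a covariate, 0.090 with batch in the 6 single-batch samples and 0.12 with the length trend removed.

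By role, 35 of the 42 tested core members of the large subunit had a fold change above 0, with a median of 0.20, as had 30 of the 31 of the small subunit, with a median of 0.21. Of the stalk genes, which bind translation factors, *Rplp0* had 0.27 ± 0.13 (SE) on the log2 scale with an adjusted p of 0.36, *Rplp1* 0.29 ± 0.13 (SE, adjusted p = 0.35) and *Rplp2* 0.032 ± 0.11 (SE, adjusted p = 0.92). *Rpsa*, which also occurs as a laminin receptor, had 0.31 ± 0.12 (SE, adjusted p = 0.32). The members on the X chromosome, where *Smchd1* acts in X inactivation, were within the same range, with 0.18 for *Rpl10*, 0.20 for *Rps4x*, 0.21 for *Rpl36a* and 0.57 for *Rpl39*. Some of the genes mutated in Diamond-Blackfan anaemia or the 5q- syndrome are given here, not all of them. The log2 fold change was 0.15 for *Rps19*, 0.24 for *Rpl5*, 0.16 for *Rpl11*, 0.25 for *Rpl26*, 0.084 for *Rps14*, -0.038 for *Rps26* and -0.28 for *Rpl35a*, and none of these passed the test.

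Batch and genotype are partly confounded here, because 2 of the 3 *Smchd1*-null samples but only 1 of the 4 WT samples were in batch 1 alone. Within batch 1, the median difference of the members in log-CPM between the 2 *Smchd1*-null samples and WT replicate 2 was 0.17, and it was above 0 for 71 of 80. Within batch 2, between *Smchd1*-null replicate 3 and WT replicates 3 and 4, it was 0.097, and above 0 for 56 of 80. Over all genes tested the medians were 0.0013 and 0.0047. In batch 2, the median deviation of the members in log-CPM was 0.0099 in *Smchd1*-null replicate 3. That is below the 0.077 of WT replicate 3 and above the -0.25 of WT replicate 4. The difference above 0 in batch 2 thus rested on WT replicate 4. When each sample's batch share (0 for batch 1, 1 for batch 2 and between them for WT replicate 1) was added to the fit, the median of the members was 0.15 and no member was called at 0.25. The summed families gave a median of 0.24, with 80 of 82 above 0, and 0.14 with the batch share. *Rpl32* was the 1 family called higher at 0.25 (log2 fold change 0.56, adjusted p = 0.20), where 0.6% of the genes in that fit were higher and 0.742% lower. No family was called at 0.05 (0.0474% of genes in each direction), and none at 0.25 with the batch share. Of the 173 tested -ps pseudogenes, none was called at 0.25 and 164 were above 0, with a median of 0.42 that became 0.16 with the batch share.

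Length also varied with the fold change. Across the 13305 genes, Spearman's rho between the deposited length and the genotype fold change was -0.38, a description over genes that share libraries. The tested members have a median deposited length of 1806 bases and a median reference mRNA of 705 bases, against a median deposited length of 4160 bases for all genes tested. With the trend on deposited length removed from each sample, the median of the members was 0.12, with 60 of 80 above 0. The deposited length counts all annotated exons and not the length of the mRNA that was read. Within the tested members, rho between the reference mRNA length and the genotype fold change was 0.18. It uses another measure of length and another set of genes, so it cannot be set against the -0.38 over all genes.

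Single samples decided the count of members called. Without WT replicate 2, 33 members passed 0.25 (32 higher, 1 lower), where 21.9% of all genes passed (1466 higher, 1447 lower). Without *Smchd1*-null replicate 3, 31 passed (30 higher, 1 lower), where 22.8% of all genes passed (1536 higher, 1493 lower). Without any 1 of the other 5 samples, 0 members passed, and 0.015% to 0.391% of all genes did. The median fold change lay between 0.13 and 0.28 in these fits.

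The batches were compared in the 6 samples sequenced in 1 batch only, 3 against 3, with genotype in the fit. At an adjusted p under 0.05, 12 members were lower and 3 higher in batch 2, which is 15% and 3.75% of the 80 members, against 5.69% and 5.36% of all genes tested. The median log2 fold change of the members was -0.11, with 49 of 80 below 0 (48.3% of all genes), and that of all genes was 0.017. At 0.25, 28 were lower and 11 higher, 39 of 80 against 37.1% of all genes (17.8% and 19.3%). All batch 2 samples lay below all batch 1 samples for 26 members (32.5%, against 17.3% of all genes) and above them for 6 (against 15.3%).

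*Rpl39* had the clearest difference, with 726, 785 and 844 CPM in WT replicate 2 and *Smchd1*-null replicates 1 and 2 of batch 1, and 486, 445 and 479 CPM in WT replicates 3 and 4 and *Smchd1*-null replicate 3 of batch 2. The batches did not overlap, and the difference was -0.69 ± 0.088 (SE) on the log2 scale with an adjusted p of 0.0019. *Rps20* had 3946, 4048 and 3862 CPM in batch 1 and 2758, 2005 and 2652 CPM in batch 2, which is -0.60 ± 0.092 (SE) on the log2 scale with an adjusted p of 0.0043. *Rpl39* and *Rps20* were thus among the members with high genotype fold changes and among those lower in batch 2, and both comparisons used the same samples. The stalk genes *Rplp1* (-0.39) and *Rplp0* (-0.37) were also lower, as were *Rps12*, *Rps18*, *Rpl12*, *Rps6*, *Rpl13*, *Rpl41* and *Rpl7a*, by 0.34 to 0.45 on the log2 scale.

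The members higher in batch 2 were *Rpl35*, *Rpl38* and *Rps7*. *Rpl38*, a small large-subunit protein, had 80.6, 103 and 118 CPM in batch 1 and 160, 134 and 160 CPM in batch 2 without overlap, which is 0.69 ± 0.12 (SE) on the log2 scale with an adjusted p of 0.0059. *Rpl35* had 7.77, 8.26 and 8.12 CPM in batch 1 and 22.02, 11.3 and 14.5 CPM in batch 2, which is 0.95 ± 0.24 (SE) on the log2 scale with an adjusted p of 0.03. Neither held for the family: with the copies added, *Rpl38* was at 0.16 (adjusted p = 0.25) and *Rpl35* at -0.087 (adjusted p = 0.59). Other low members had large fold changes that did not pass the test, such as *Rps10* at -1.004 ± 0.35 (SE, adjusted p = 0.084), *Rpl24* at -0.80 ± 0.37 (SE, adjusted p = 0.18) and *Rpl29* at 0.70 ± 0.57 (SE, adjusted p = 0.45).

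Of the summed families, 19 were lower in batch 2 and 1, *Rps26*, was higher at 0.05 (5.44% and 5.23% of the genes in that fit). At 0.25 these were 39 and 4 (17.6% and 18.6%). *Rpl12*, *Rpl13a* and *Rps20* led, with -0.73, -0.63 and -0.57. Of the 173 tested -ps pseudogenes, 47 were lower and 3 higher at 0.05, against 5.69% and 5.36% of all genes tested. With the length trend removed, the split of members called at 0.05 turned to 9 higher and 3 lower, against 4.03% and 3.88% of all genes. No member was called at 0.05 without WT replicate 2 or without *Smchd1*-null replicate 3, where 0.00752% of all genes were called in either fit, and 4 and 6 were called without *Smchd1*-null replicates 1 and 2 (3.01% and 4.96% of all genes). A fit in which the genotype difference could differ between batches gave a median of -0.066 for that change in the members and of -0.00073 in all genes. WT replicate 2 was the only WT sample of batch 1 in it, and *Smchd1*-null replicate 3 the only *Smchd1*-null sample of batch 2. Such a fit could hardly call a gene, so whether the genotype difference was alike in both batches was not settled.

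**Figure D4:**
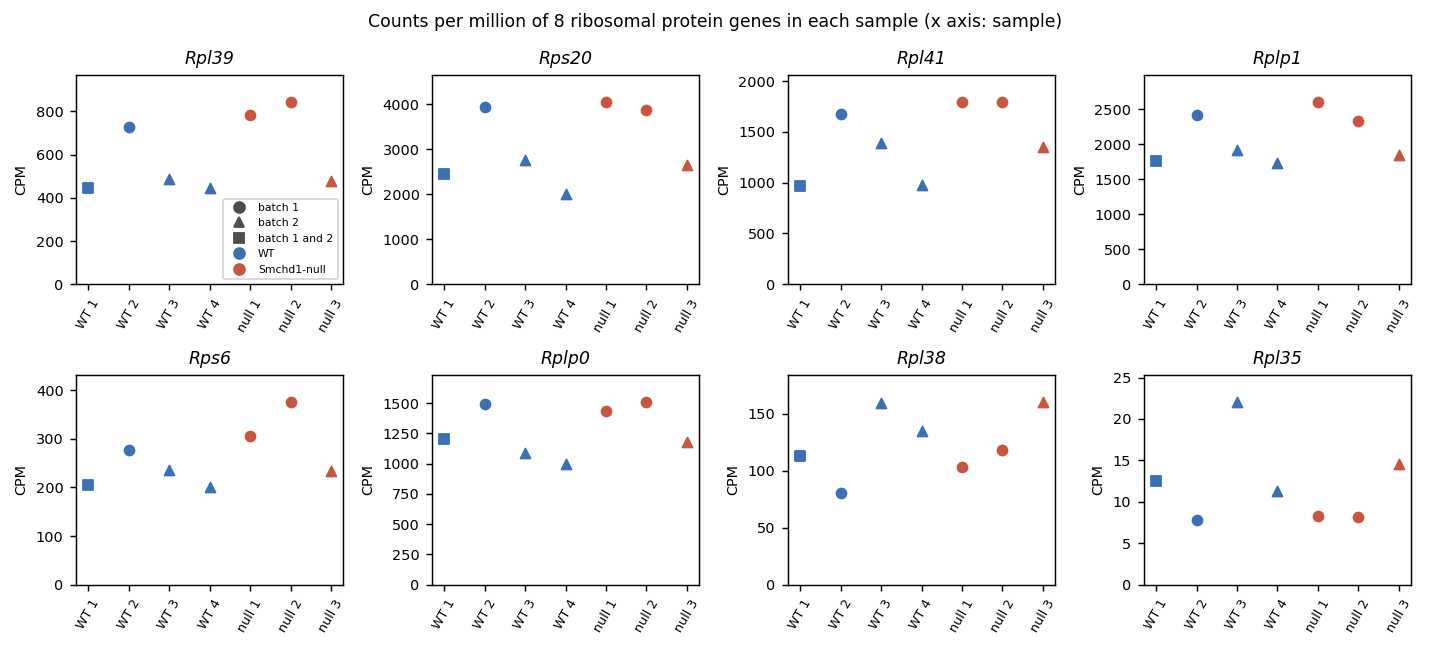
CPM (each axis starts at 0) of 8 members in each sample, coloured by genotype with the batch as the symbol. For *Rpl39* and *Rps20* the batch 1 samples, WT replicate 2 included, lie above the batch 2 samples, and for *Rpl38* they lie below them.

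A few members stood apart in WT replicate 4. The coefficient of variation over 7 samples had a median of 15.6% across core members, and 160% for *Rpl29* and 81.4% for *Rps2*. *Rpl29* had 19.5, 10.2 and 11.8 CPM in WT replicates 1 to 3, 175 CPM in WT replicate 4 and 18.02, 14.4 and 16.2 CPM in the *Smchd1*-null samples. *Rps2* was at 105 CPM in WT replicate 4 and at 17.8 to 33.1 CPM elsewhere, and *Rpl34* at 163 CPM against 73.0 to 93.5 CPM. The copies shifted in WT replicate 4 as well. *Gm13841* had 408 CPM there and 732 to 999 CPM in the other samples, *Gm8210* 342 CPM against 709 to 899 CPM, whereas *Gm10709*, shown above with 2 of its differing bases, had 269 CPM against 5.63 to 11.8 CPM. The sum of *Rpl29* and its copies in WT replicate 4 was 1613 CPM, below the 1859 to 2529 CPM of the other samples. *Rpl29* was thus higher there while its family was not. WT replicate 4 also had the marker sums given above, and their part in this was not tested.

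**Figure D5:**
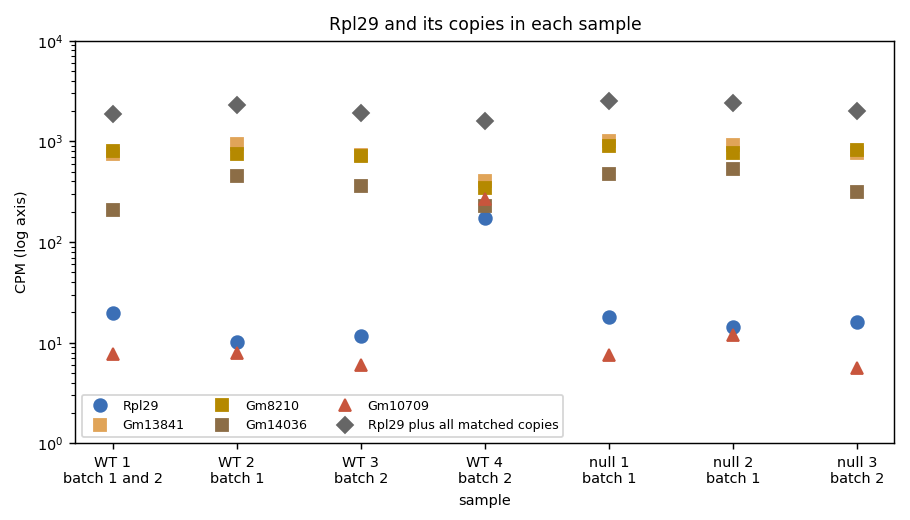
CPM (log axis) of *Rpl29*, of 4 pseudogenes matched to it and of the family total in each sample. In WT replicate 4, *Rpl29* (175 CPM) and *Gm10709* (269 CPM) lie above their highest values elsewhere (19.5 and 11.8 CPM), while *Gm13841*, *Gm8210* and the family total are at their lowest.

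Lists of related genes showed no calls between the genotypes. Among cytosolic ribosomal proteins left out by the naming rule, the log2 fold change was 0.34 for *Fau* and 0.25 for *Rack1*. Of 14 other genes with the same kind of 5′ tract, most but not all of them translation factors, 10 were above 0 with a median of 0.11. They ran from *Eef1a1* (elongation factor 1A, -0.23) and *Tpt1* (-0.19) to *Eef1d* (0.28) and *Eef2* (elongation factor 2, 0.33, adjusted p = 0.29). Of 38 ribosome biogenesis genes, 31 were above 0 with a median of 0.18, from *Nmd3* (-0.18) and *Tsr1* (-0.14) to the nucleolar genes *Nop10* (0.40) and *Nop56* (0.47). The 75 tested mitochondrial ribosomal protein genes had a median of 0.094 with 52 above 0, from *Mrpl24* (-1.20) and *Mrpl16* (-0.30) to *Mrps26* (0.44) and *Mrps11* (0.45). Of 10 growth signalling genes, 8 were above 0 with a median of 0.085, from *Mtor* (-0.36) and *Max* (-0.044) to *Eif4ebp1* (0.50) and *Mycn* (0.75). Of the 6 snoRNA host RNAs, 4 were above 0 with a median of 0.031, from *Snhg6* (-0.27) and *Snhg12* (-0.15) to *Snhg1* (0.17) and *Snhg5* (0.36). None of these genes had an adjusted p under 0.25, against 1.08% of all 13305 genes tested, a share at which lists of this size would hold few calls. With the batch share in the fit, the median was 0.15 for the cytosolic members and 0.15 for the biogenesis genes. It was 0.11 for the 14 other genes with the 5′ tract and 0.018 for the mitochondrial ribosomal proteins.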

How the data were processed

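The deposited files hold whole-number counts per gene and sample, not normalised, made by the authors by aligning reads to mm10 (GRCm38) with minimap2 2.17 in spliced, forward-strand mode and counting primary alignments with featureCounts on Gencode M23. A read is thus placed at a single locus even where copies are near identical, overlapping genes cannot be resolved, and whether counting used strand is not given in the sources used here. The authors summed both runs of WT replicate 1. The deposited length column covers all annotated exons.

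Symbols and coordinates came from Gencode M21 on the same build: 55154 of the 55335 IDs matched without the version and 181 did not (808 counts). Genes kept by filterByExpr (13305) were scaled by TMM and tested, two-sided with Benjamini-Hochberg adjustment, with limma's voomWithQualityWeights, genotype as the only term; batches were fitted with genotype and batch in 6 samples. Log-CPM used a prior count of 2. Copies were found with blastn 2.17.0 (same strand, identity of at least 80%, at least 50% of the coding sequence, gene at most 2 times as long as the member's mRNA, which left out 28 genes). Software was R 4.3.3, limma 3.58.1, edgeR 4.0.16, DESeq2 1.42.0 and Python 3.11.15.

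Members, gene lists, the naming rule and tests were chosen with earlier results of these data known, and the summed families after the counts were seen. Named were *Smchd1*, members with an adjusted p under 0.25 between genotypes, the 3 highest and 3 lowest fold changes in both comparisons, the 5 highest and 5 lowest levels, paralogs, stalk, X-linked and disease genes, and the parents of the 5 -ps pseudogenes with most counts. Others were named after their values were seen. Alternatives were edgeR, DESeq2, no sample weights, other scalings and filters, removal of the length trend (lowess, span 0.3), batch terms, the replicate block, thinning and leaving out each sample. The fits were tested on simulated data. Total counts per sample were 2741820 to 7736498, and 3 counts are 0.399 to 1.13 CPM, which covers counting error only. Single results on some members and on related genes are not reported here, while counts, sums and medians include them.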

Additional observations from a re-analysis of the deposited data

Results flagged for a closer look

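In a group of 4 samples, a value far from the others was looked for in 46 quantities of the WT samples, and chance gives about 1 such value in 20. There were 2. *Rplp2*, a stalk protein gene with few copies, had a log-CPM of 8.75 in WT replicate 4 against 9.17 to 9.21 in the other WT samples. *Rpl39l*, the testis paralog, had a log-CPM of -0.54 in WT replicate 3 against -1.24 in the others, which is the difference between 1 count and 0.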

How the results depend on the processing

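The median log2 fold change of the members between genotypes stayed above 0 in all 24 alternatives (0.090 with batch as a covariate in 6 samples to 0.28 without WT replicate 3) and that between batches below 0 in all 17 (-0.21 without WT replicate 3 to -0.031 with the length trend removed). At an adjusted p under 0.25, 0 members were called between genotypes with edgeR, with DESeq2, without sample weights, with all genes that have at least 1 count, with the length trend removed, with the batch share or batch as a covariate, with thinned libraries and, for summed families, with the batch share or the length trend removed, and 3 members with at least 10 counts in every sample. For the fit with at least 10 counts, the share of all genes called is not given here, so its 3 calls cannot be compared with that share. Of all 13305 genes, 46 were higher and 28 lower at 0.25 with the batch share, and 58 and 63 with the length trend removed. Leaving out 1 sample gave 0 to 33 calls at 0.25 and 0 to 2 at 0.05, where 0.015% to 22.8% and 0.00752% to 1.24% of all genes were called. Between batches, the count of 39 at 0.25 became 21 with DESeq2, where 756 of all 13305 genes were higher and 924 lower. With 1 sample left out it became 0 to 44 (0.0977% to 33.2% of all genes). The count of 15 at 0.05 became 3 with edgeR (107 of all genes higher and 130 lower) and 6 with DESeq2 (189 higher and 294 lower). With 1 sample left out it became 0 to 14 (0.00752% to 10.2% of all genes). It was 3 without sample weights and 25 with all genes that have at least 1 count, and the shares of all genes in these last fits are not given here. Over summed families, 18 members turned from higher to lower in batch 2 and 2 from lower to higher. Among the 18 were *Rpl35* (-0.087), *Rps7* (-0.087), *Rpl29* (-0.32), *Rpl22l1* (-0.50) and *Rpl13a* (-0.63).

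The share of counts in members, 4.19% in WT and 4.77% in *Smchd1*-null, was 5.31% and 6.20% of protein-coding counts, 2.97% and 3.35% in members without shared exon bases, 8.70% and 9.95% with -ps pseudogenes added and 17.2% and 19.7% with all matched genes added. It lay between 4.05% and 4.35% in WT and between 4.68% and 4.92% in *Smchd1*-null with 1 sample left out. The share of pseudogenes in the family counts was 73.3% and 73.5% by sequence match and 75.6% and 75.8% with all matched genes, and with 1 sample left out the share of -ps pseudogenes lay between 51.66% and 52.003% in WT and between 51.95% and 52.2% in *Smchd1*-null. The SD of log2 levels across core members was 0.86 for summed families.

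The deviations of same-numbered samples correlated by -0.038, 0.36 and 0.094, and those of the other WT and *Smchd1*-null pairs by -0.54 to 0.30. Same-numbered replicates 2 and 3 also shared a batch, so these values cannot settle whether the replicate numbers pair the samples. With the replicate block, 0 members were called at 0.25, also with the length trend removed and for summed families, and the median fold change was 0.15, 0.11 and 0.14. With 3 and 4 samples, members with few counts of their own (*Rpl23a*, *Rpl24*, *Rps10*) are measured with little precision. What the batches and the genotypes each add cannot be told apart fully.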
